A study of Danio rerio with 31 samples.

Results

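The genes described here are the activators of the zebrafish circadian clock, bmal1a, bmal1b, bmal2, clocka and clockb. They were chosen by name, and every probe that carries their transcript accession was read. These are 5 of the 11482 genes that the probes could be matched to. They are covered by 6 of the 43603 probes, 1 for each gene and 2 for clockb. The older symbols arntl1a, arntl1b, arntl2, clock and clock3 refer to the same 5 genes. All 6 probes passed the detection filter of the time course, which 35412 probes passed, and all 6 passed the filter at 48 and 50 hpf.

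Bmal and Clock proteins are transcription factors of the bHLH-PAS family. A Bmal protein pairs with a Clock protein, and the pair binds E-box elements and turns on the per and cry genes, whose proteins then inhibit the pair. A second loop acts on the bmal genes themselves, which in mammals are repressed by Rev-erb (Nr1d) and activated by Ror nuclear receptors. Zebrafish carry duplicated copies of several of these genes, and light reaches the clock in most of their tissues directly.

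The study measured RNA of pooled whole zebrafish larvae on Agilent one-colour arrays. In the time course, AB wild-type larvae were raised under 14 h of light and 10 h of dark. From lights-on at 5 dpf, dishes of 40 larvae either stayed in that cycle (LD) or were kept in constant dark (DD), and 1 dish per condition was taken every 4 h from 0 to 44 h. This gave 12 LD and 12 DD arrays, with 1 array per condition and time point. The other 7 arrays hold larvae injected with a morpholino against mitfa (3 arrays, 2 at 50 hpf and 1 at 48 hpf), larvae injected with a control morpholino (1 array at each age) and uninjected WT larvae (1 array at each age). The mitfa morpholino was injected at 9 ng, and at 13 ng in replicate 2 at 50 hpf. Time 0 is lights-on, and in LD the lights went off at 14 h.

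Between 75.2% and 92% of spots were well above background on the time-course arrays, and between 71.3% and 75.3% on the 48 and 50 hpf arrays. The median signal was 7.28 to 12 times the local background on the time-course arrays and 2.07 to 2.59 times on the 48 and 50 hpf arrays. Of 29 markers of muscle, retina, lens, liver, pancreas, neurons, pigment cells, blood and heart, 23 were matched to a probe, and these 23 were above background on every array. In bulk larvae, fewer cells that use a gene and less RNA per cell cannot be told apart. LD arrays lay on 3 slides and DD arrays on 3 others, so a difference between LD and DD and a difference between slides cannot be told apart. All values below are log2 signals after quantile normalization within each set. Levels of different probes cannot be compared with each other, since probes differ in brightness.

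All 5 genes followed a 24-h course in both conditions, low around lights-on and high around lights-off. A gene was called rhythmic where 24 h was the strongest of the tested periods and the p of Fisher's g test was below 0.5 in LD and also in DD, the study's rule. All 5 genes and all 6 probes met it, against 12.7% of all detected probes. This is a lenient rule. The g-test p was between 2.2e-05 for bmal1b and 0.053 for clocka in LD, and between 0.00068 for bmal1b and 0.016 for the brighter clockb probe in DD, where the dimmer clockb probe had 0.38. After adjustment over all detected probes, bmal1a (0.032) and bmal1b (0.017) stayed below 0.05 in LD, and the lowest value in DD was 0.13, for bmal1b.

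A cosine with a period of 24 h was also fitted to each gene in each condition with limma. Its amplitude is the distance from the mean to the peak on the log2 scale. The 24-h terms passed an adjusted p of 0.05 for all 5 genes in LD, against 11.9% of detected probes, and for all 5 genes in DD, against 3.11%, with clockb read from its brighter probe. With either cycle alone, which leaves 6 arrays per condition, 0 of the 5 genes passed in both conditions. None passed in DD with either cycle. In LD all 5 passed with the second cycle alone, and with the first alone bmal1b and bmal2 passed.

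**Figure D1:**
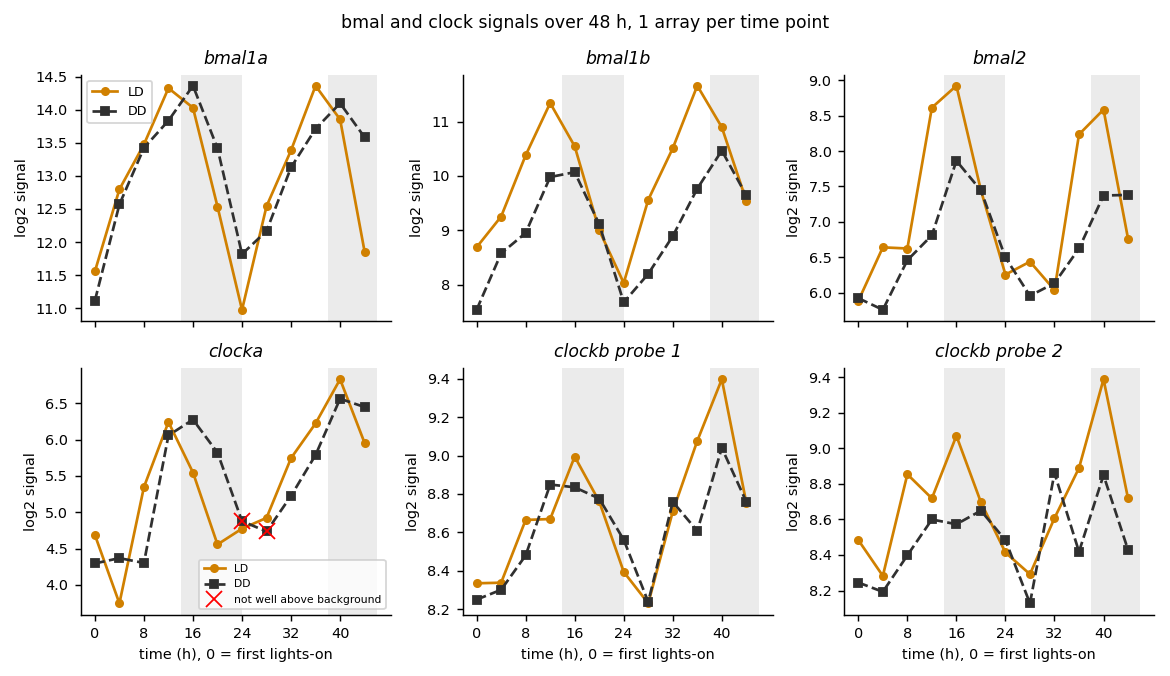
Log2 signal of each probe (vertical axis) against time in hours (horizontal axis), with 1 point per array, LD in orange circles and DD in dark squares. Grey bands mark the dark phase of LD and red crosses the 2 arrays on which clocka was not well above background. Peaks fall at 12 or 16 h and again at 36 or 40 h in most courses, and clockb spans a narrower log2 range than the bmal genes.

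bmal1a encodes one of the pair of zebrafish Bmal1 proteins. From 0 to 44 h its log2 signals in LD were 11.56, 12.80, 13.47, 14.32, 14.03, 12.54, 10.98, 12.54, 13.39, 14.36, 13.85 and 11.85. In DD they were 11.11, 12.57, 13.42, 13.83, 14.36, 13.42, 11.82, 12.17, 13.13, 13.71, 14.10 and 13.58. The highest LD arrays were those at 12 and 36 h and the highest DD arrays those at 16 and 40 h, so that the DD course ran later through the evening. The fitted amplitude was 1.44 ± 0.16 in LD and 1.20 ± 0.16 in DD (SE), which corresponds to 7.4-fold and 5.3-fold between trough and peak. The limma adjusted p of the 24-h terms was 2.5e-05 in LD and 0.00073 in DD.

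bmal1b, the other Bmal1 copy, had the same form with a lower DD course. Its LD signals from 0 to 44 h were 8.69, 9.25, 10.38, 11.34, 10.55, 9.00, 8.03, 9.56, 10.51, 11.66, 10.90 and 9.54. Its DD signals were 7.53, 8.57, 8.95, 9.98, 10.07, 9.11, 7.67, 8.20, 8.89, 9.77, 10.47 and 9.64. The second cycle repeated the first closely in both conditions, with an SD between cycles at the same clock time of 0.30 in LD and 0.23 in DD. The amplitude was 1.46 ± 0.13 in LD and 1.20 ± 0.13 in DD (SE), with adjusted p of 1.9e-06 and 1e-04 by limma.

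bmal2 encodes a further Bmal protein, related to mammalian Arntl2. In LD its signals from 0 to 44 h were 5.89, 6.64, 6.62, 8.61, 8.92, 7.44, 6.26, 6.44, 6.04, 8.23, 8.58 and 6.76. In DD they were 5.92, 5.76, 6.46, 6.81, 7.86, 7.44, 6.50, 5.96, 6.14, 6.62, 7.37 and 7.38. In LD the signal stayed between 5.89 and 6.64 over the first 8 h and then stood at 8.61 at 12 h, and in the second cycle it stood at 6.04 at 32 h and at 8.23 at 36 h. The amplitude was 1.34 ± 0.17 in LD and 0.87 ± 0.17 in DD (SE), with adjusted p of 6.8e-05 and 0.012 by limma. Without the DD array at 16 h, the highest of its DD course, the adjusted p in DD was 0.059.

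clocka encodes a Clock protein, and its probe was the one of the 6 that was not well above background on every array. Its LD signals from 0 to 44 h were 4.69, 3.75, 5.35, 6.24, 5.55, 4.56, 4.77, 4.92, 5.75, 6.22, 6.83 and 5.95. Its DD signals were 4.30, 4.37, 4.30, 6.06, 6.28, 5.82, 4.88, 4.74, 5.23, 5.79, 6.56 and 6.45. The DD values at 24 and 28 h were not well above background and are therefore less certain, though they entered the fits as measured. The SD between cycles was larger than for the bmal genes, 0.66 in LD and 0.40 in DD. The amplitude was 0.97 ± 0.19 in LD and 1.07 ± 0.19 in DD (SE), with adjusted p of 0.0044 and 0.0053 by limma.

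clockb encodes the other Clock protein of the set, and its log2 course was flat beside those of the bmal genes. Its brighter probe had LD signals of 8.33, 8.34, 8.66, 8.67, 8.99, 8.76, 8.39, 8.23, 8.71, 9.08, 9.40 and 8.75 from 0 to 44 h. The DD signals were 8.25, 8.30, 8.48, 8.85, 8.83, 8.78, 8.56, 8.24, 8.76, 8.61, 9.04 and 8.76. The trough at clock time 4 h and the peak at 16 h were shared by LD and DD, and the fold between the mean values at these times was 1.88 in LD and 1.59 in DD. The fitted amplitude was 0.42 ± 0.07 in LD and 0.31 ± 0.07 in DD (SE), with adjusted p of 0.00097 and 0.034 by limma.

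The dimmer clockb probe correlated with the brighter one at r = 0.903 over the 24 arrays, as a description, since both probes saw the same RNA. It gave an amplitude of 0.39 ± 0.08 in LD and 0.20 ± 0.08 in DD (SE). Its adjusted p was 0.0072 in LD and 0.34 in DD, so its probes fell on different sides of the threshold in DD. The call of the brighter probe in DD was also lost on removal of any one of 9 of the 12 DD arrays, with an adjusted p of up to 0.15.

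The amplitudes depended on the background correction, most of all for bmal2 and clocka. A normexp correction of raw signals, which adds a fixed offset, was used as the alternative. The amplitude was then 0.81 in LD and 0.43 in DD for bmal2 and 0.33 in LD and 0.38 in DD for clocka. For bmal1b it was 1.24 in LD and 0.88 in DD, for clockb 0.35 in LD and 0.21 in DD, and for bmal1a 1.41 in LD and 1.13 in DD. All 5 genes still passed the limma threshold in both conditions under that correction, and amplitudes are therefore not ranked between dim and bright probes.

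**Figure D2:**
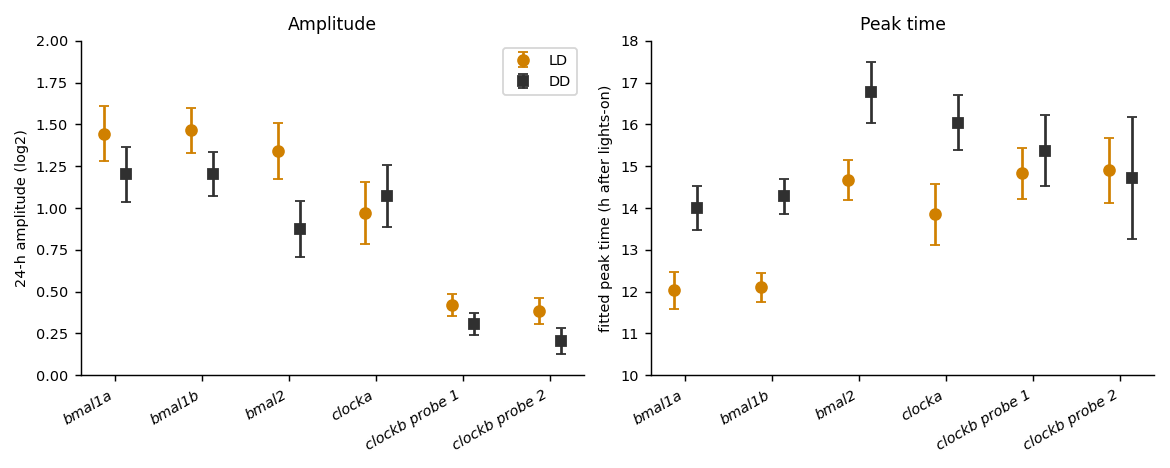
Fitted 24-h amplitude on the log2 scale (left) and fitted peak time in hours after lights-on (right) of each probe, LD in orange circles left of DD in dark squares, with bars of 1 SE. Amplitudes in LD lie between 0.39 and 1.46, and peak times in LD between 12.03 and 14.90 h.

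The 5 genes did not peak together. In LD the fitted peak was at 12.03 ± 0.43 h for bmal1a and 12.11 ± 0.35 h for bmal1b, followed by clocka at 13.85 ± 0.73 h, bmal2 at 14.67 ± 0.48 h and clockb at 14.83 ± 0.61 h (SE). Both bmal1 copies thus peaked before lights-off at 14 h, and the fits of the other genes lay close to it. In DD the fitted peak was at 14 ± 0.52 h for bmal1a, 14.28 ± 0.42 h for bmal1b, 15.37 ± 0.85 h for clockb, 16.04 ± 0.66 h for clocka and 16.77 ± 0.73 h for bmal2.

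Differences in peak time between genes were judged by 95% intervals that use the shared errors of genes on the same arrays. bmal2 peaked 2.56 h after bmal1b in LD (interval 1.34 to 3.79 h) and 2.49 h after it in DD (0.73 to 4.26 h). Against bmal1a the lag of bmal2 was 2.65 h in LD (1.64 to 3.65 h) and 2.77 h in DD (1.32 to 4.22 h). clocka peaked 1.74 h after bmal1b in LD (0.26 to 3.22 h) and 1.76 h after it in DD (0.38 to 3.14 h). Against bmal1a the lag of clocka was 1.82 h in LD, with an interval that included 0 (−0.16 to 3.80 h), and 2.03 h in DD (0.07 to 4.00 h). For clockb against bmal1b, the lag was 2.72 h in LD (1.38 to 4.07 h), and in DD the interval included 0 (1.09 h, −0.68 to 2.86 h).

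The bmal1 copies could not be separated from each other, and neither could the 3 later genes. The interval of bmal1b minus bmal1a was −0.71 to 0.87 h in LD and −0.67 to 1.23 h in DD. Among bmal2, clocka and clockb, every pairwise interval included 0 in LD and in DD. As a group, the mean peak of bmal2, clocka and clockb was 2.38 ± 0.42 h after the mean peak of both bmal1 copies in LD and 1.92 ± 0.48 h after it in DD (SE). This grouping follows the fitted peaks of the same arrays, so the gap is a description and no test. By the clock time of the highest mean value, the gap was 2.67 h in LD and 0 h in DD, where all 5 genes were highest at 16 h of the 4 h grid.

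For 4 of the 5 genes the fitted peak was later under DD than under LD with a 95% interval that excluded 0. LD minus DD was −1.98 h for bmal1a (95% interval −3.39 to −0.56 h), −2.17 h for bmal1b (−3.31 to −1.03 h), −2.10 h for bmal2 (−3.92 to −0.28 h) and −2.19 h for clocka (−4.23 to −0.14 h). For clockb it was −0.54 h with an interval of −2.71 to 1.64 h on the brighter probe and 0.20 h with an interval of −3.24 to 3.63 h on the dimmer one. Over the 4515 probes called rhythmic in both conditions, the median was −1.09 h, with quartiles of −2.04 and 0.0029 h, and 75% of them peaked earlier in LD. An earlier peak in LD was thus common among rhythmic probes. That 75% counts direction alone, and the share of probes with an interval off 0 was not taken. The intervals of the 5 genes are not adjusted for the number of probes. The joint limma test of amplitude and phase, given below, called none of these genes.

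The peak times were also fitted to each cycle alone. In DD the fitted peak was at 14.54 h in the second cycle and 13.54 h in the first for bmal1a, and at 14.83 h in the second and 13.65 h in the first for bmal1b. It was at 17.65 h in the second and 16.11 h in the first for bmal2, at 16.36 h in the second and 15.77 h in the first for clocka, and at 15.82 h in the second and 15 h in the first for clockb. All 5 genes were later in the second DD cycle. They share the same DD arrays, and the share of all rhythmic probes that were later was not taken. In LD the second cycle was later for bmal1b, bmal2 and clocka and earlier for bmal1a (11.85 h in the second, 12.25 h in the first) and clockb (14.68 h in the second, 15.11 h in the first). Each of these fits rests on 6 arrays per condition, and the shift between cycles was not tested.

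Amplitudes in LD and DD were not shown to differ for any of the 5 genes. LD minus DD was 0.24 for bmal1a (95% interval −0.24 to 0.72), 0.26 for bmal1b (−0.13 to 0.65), 0.46 for bmal2 (−0.03 to 0.96), −0.10 for clocka (−0.65 to 0.44) and 0.11 for clockb (−0.08 to 0.31). The DD amplitude was 83.3% of that in LD for bmal1a, 82.1% for bmal1b, 65.3% for bmal2 and 111% for clocka. For clockb it was 72.7% on the brighter probe and 53% on the dimmer one, where LD minus DD was 0.18 (−0.05 to 0.41). The median over the 4515 rhythmic probes was 81.4%. These percentages hold for the main background correction, and those under normexp were not taken. The joint limma test of amplitude and phase between LD and DD called 0 of the 5 genes and 0% of all detected probes. At an unadjusted p below 0.05 it took in 1191 of 35412 detected probes, among them bmal1b (0.0017), bmal2 (0.017) and bmal1a (0.020), with clocka at 0.11 and clockb at 0.44.

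In mean level over the 48 h, bmal1b was the gene called different between LD and DD. Its difference was not tested against those of the other genes. bmal1b averaged 9.95 ± 0.09 in LD and 9.07 ± 0.09 in DD (SE, n = 12 arrays each), a difference of 0.88 ± 0.13 or 1.84-fold. Its limma adjusted p was 0.00021, and 3.17% of detected probes were called higher in LD. The LD array was higher at 10 of the 12 time points, by 0.36 to 1.89, and lower by 0.11 at 20 h and by 0.10 at 44 h. At 0 h, when the dishes of both conditions had come through the same light cycle, the LD array was already higher by 1.15. That pair is part of the mean difference, and the gap at 0 h was not tested. The LD excess was 0.93 within the second cycle and 0.83 within the first. With the slide as a random block the difference was the same 0.88, but the adjusted p was 0.29.

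bmal2 averaged 7.20 ± 0.12 in LD and 6.69 ± 0.12 in DD (SE), a difference of 0.52 ± 0.17 with an adjusted p of 0.07 by limma. LD and DD dishes were sampled together, and with the time point as a block the adjusted p was 0.042. At 12 h the LD array exceeded the DD array by 1.80, at 36 h by 1.61, at 16 h by 1.06 and at 40 h by 1.21, and at the other 8 time points the difference ran from −0.62 to 0.88. Over the 24 fits with 1 array left out, the limma adjusted p of bmal2 ran from 0.011 to 0.13. It was 0.011 without the LD array at 32 h and 0.028 without the LD array at 44 h, the removals that changed the call. With the slide as a random block the bmal2 difference was the same 0.52, but the adjusted p was 0.9996.

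The other genes had closer means. LD minus DD was −0.13 ± 0.16 for bmal1a, −0.02 ± 0.19 for clocka and 0.07 ± 0.07 for clockb, with limma adjusted p of 0.72, 0.98 and 0.60. The dimmer clockb probe gave 0.22 ± 0.08 with an adjusted p of 0.11. The direction for clocka turned to 0.19 when arrays were scaled to their 75th percentile. For bmal1a the LD array was higher at 4, 8, 12, 28, 32 and 36 h and the DD array at 16, 20, 24, 40 and 44 h, by as much as 1.73 at 44 h, and 0 h was the remaining time with LD higher. None of the 23 cell type markers passed the test between LD and DD, with differences from −0.63 to 0.18.

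**Figure D3:**
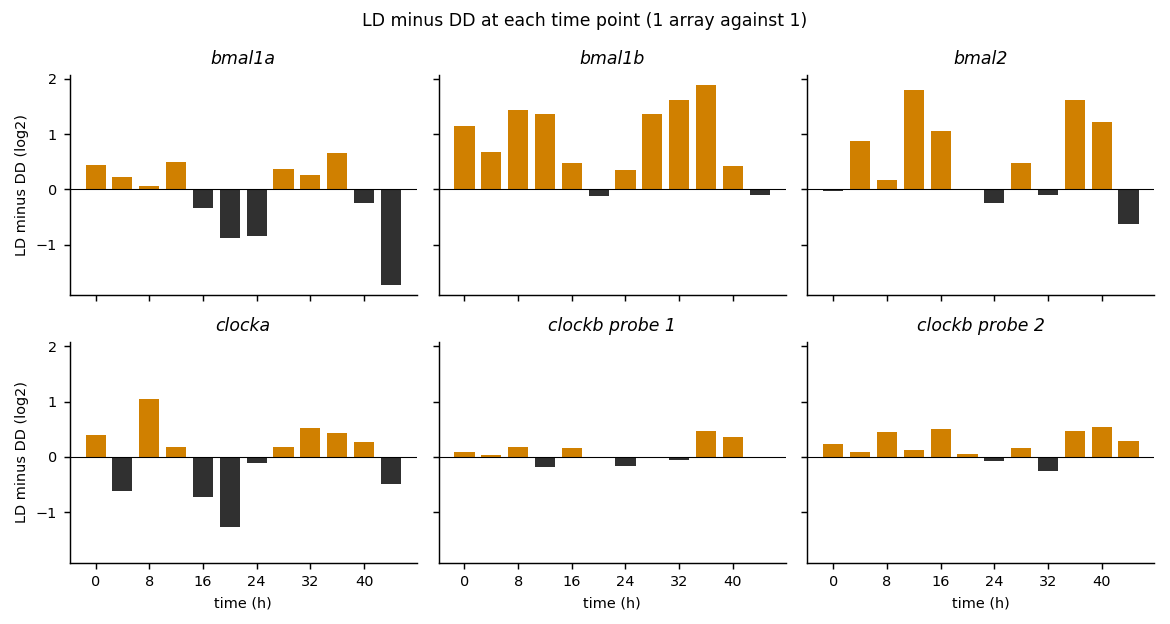
LD minus DD of the log2 signal (vertical axis) at each time point in hours (horizontal axis), with 1 LD and 1 DD array behind each bar, orange where LD was higher and dark where DD was higher. bmal1b is above 0 at 10 of 12 time points, 0 h among them, while bmal1a is below 0 at 16, 20, 24, 40 and 44 h.

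The study also asked whether a smaller rhythm in DD came from a lower peak or a higher trough. A template with the LD cosine and a flat low DD course passed the limit of 1e-04 for bmal1b (r = 0.76 over 24 arrays, peak of the template at 12.17 h), bmal2 (r = 0.71) and the dimmer clockb probe (r = 0.73), and 1.42% of detected probes passed it. It did not pass for bmal1a (r = 0.46), clocka (r = 0.40) or the brighter clockb probe (r = 0.59). The template with a flat high DD course passed for none of the 6 probes, with r between 0.19 and 0.55. These correlations describe the shape of the same 24 arrays and add no evidence to the tests above.

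From the first 24 h to the second, 1 of the 5 genes, clocka, was called higher, which is near the share of all detected probes. The clocka signal was 0.57 ± 0.14 higher in the second cycle (SE, limma adjusted p = 0.0055), and 23.5% of detected probes were called higher there. Whether the change of clocka differed from those of the other genes was not tested. The gain of clocka was 0.72 in LD alone (adjusted p = 0.047) and 0.42 in DD alone (adjusted p = 0.084). With arrays scaled to the 75th percentile it was 0.39 with an adjusted p of 0.054. The other genes had differences of −0.16 ± 0.10 for bmal1a, 0.12 ± 0.10 for bmal1b, −0.18 ± 0.11 for bmal2 and 0.11 ± 0.06 for clockb, none past the threshold. The second cycle also differs in larval age and in part in slide. In each condition the arrays at 16, 20, 24 and 28 h shared 1 slide, which spans both cycles. Of the 23 cell type markers 5 were higher and 7 lower in the second cycle. The part of age, slide and markers in the clocka result was not tested.

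The rest of the clock gives the setting of these courses. Of the listed per and cry genes, 11 were detected and 11 met the rhythm rule, which is lenient. The limma test of the 24-h terms was passed by 11 of these genes in LD and by 6 in DD. For per2 the DD amplitude was 0.40 ± 0.27 (SE, adjusted p = 0.69 by limma). Several of the 11 genes encode inhibitors of the Bmal and Clock pair, while cry-dash and cry5 encode relatives of the photolyases. In LD per1b peaked at 2.42 h, cry2 at 1.98 h, per3 at 3.93 h, cry1b at 5.80 h and per2 at 7.85 h, before the activators. cry3a (11.8 h), cry3b (12.3 h) and cry4 (13.2 h) peaked beside them. Of these 11 genes, 4 were called higher and 1 lower in LD, with per1b lower (−1.19 ± 0.28, limma adjusted p = 0.011) and cry3b higher (1.66 ± 0.19, adjusted p = 7.9e-06).

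Of 10 listed names of nuclear receptors of the second loop, 6 were matched to a gene by accession. All 6 were detected, and 3 met the rhythm rule. The study lists nr1d4a, nr1d4b and rorcb as rhythmic, and these were not among the 6, so their courses are missing here. The limma test of the 24-h terms was passed by 4 of the 6 in LD and by 3 in DD. nr1d1, whose mammalian counterpart represses Bmal1, peaked at 23.9 h in LD and 1.35 h in DD, when the bmal1 copies were at their troughs, with an amplitude of 3.64 ± 0.42 in LD and 2.69 ± 0.42 in DD (SE). rorca, a receptor of the activating Ror kind, peaked at 9.47 h in LD and 12.0 h in DD, ahead of bmal1a and bmal1b in both conditions. rorab peaked at 6.89 h in LD and 8.29 h in DD.

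Among 10 detected output regulators, 8 met the rule. The limma test of the 24-h terms was passed by 8 of the 10 in LD and by 7 in DD. The bHLH repressor gene bhlhe41 peaked at 0.19 h in LD, opposite to bmal1a. nfil3, a bZIP repressor gene, peaked at 12.7 h in LD and 15.6 h in DD, close to the activators, and hlfb at 13.6 h in LD and 14.8 h in DD.

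Of 22 listed names of other bHLH-PAS family members, 12 were matched to a gene by accession and 11 of these were detected. The rhythm rule was met by 0 of the 11. The study lists ahr1a, hif1ab and epas1a as rhythmic, and these were not among the 11, so the count does not cover the whole family. The limma test of the 24-h terms in LD was passed by 2 of the 11, npas4a (amplitude 0.66, adjusted p = 0.03) and epas1b (0.23, adjusted p = 0.0496), and by 0 of them in DD. npas2, the closest relative of the clock genes, had an amplitude of 0.37 ± 0.19 in LD and 0.41 ± 0.19 in DD (SE), with limma adjusted p of 0.36 and 0.48, and its signal fell by 0.64 ± 0.14 from the first cycle to the second (adjusted p = 0.0017). arnt and arnt2, general partners of the family, had LD amplitudes of 0.17 and 0.49 with adjusted p of 0.57 and 0.079. Of 12 detected kinase, ligase and cofactor genes of the clock, 4 met the rule, namely csnk1da, csnk1db, csnk1e and fbxl3a. The limma test of the 24-h terms was passed by 4 of the 12 in LD and by 2 in DD. fbxl3a, whose mammalian counterpart marks Cry proteins for breakdown, peaked at 12.8 h in LD and 14.7 h in DD.

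**Figure D4:**
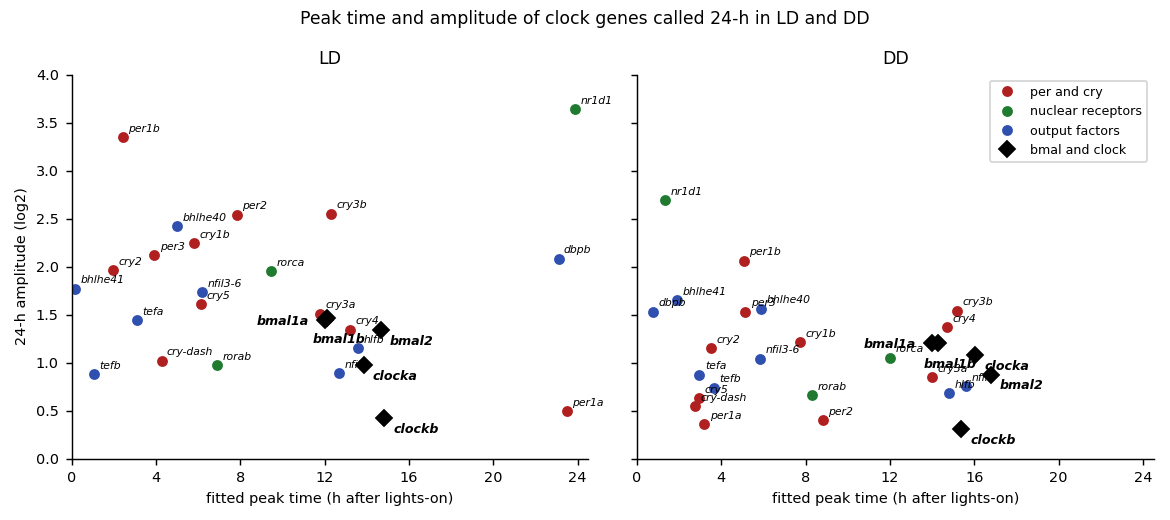
Fitted peak time in hours after lights-on (horizontal axis) against 24-h amplitude on the log2 scale (vertical axis) in LD (left) and DD (right), with 1 point per gene, black diamonds for the bmal and clock genes and coloured points for the per and cry genes, nuclear receptors and output regulators that met the rhythm rule. The activators lie between 12.03 and 14.83 h in LD, and nr1d1 lies at 23.9 h.

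The genes with the most similar and most opposite courses were ranked by Pearson r over the 24 arrays, among 10421 named genes. These values describe shared rhythm and carry no p. For bmal1a the closest were mxd3 (r = 0.973), cry4 (0.952), sesn3 (0.945), fbxl3a (0.93) and lrrc30a (0.92), and the most opposite were gja13.1 (−0.974), bhlhe41 (−0.961) and ncaldb (−0.96). mxd3 encodes a partner of Max and gja13.1 a connexin. For bmal1b the closest were cry3b (0.95), cdc34b (0.944), cry3a (0.933), crlf3 (0.906) and zc2hc1a (0.906), and the most opposite were cyp3c4 (−0.923), lnx2b (−0.916) and nom1 (−0.902).

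For bmal2 the closest were oxr1b (0.936), bckdk (0.885), rgp1 (0.88), dcaf5 (0.879) and lgmn (0.87). The most opposite were per1b (−0.958), vegfd (−0.904) and csnk1da (−0.895), with a per gene and a clock kinase gene among them. The r of these genes with the bmal1 copies is not given here. For clocka the closest were tspan3b (0.912), ndrg4 (0.896), slc1a7a (0.887), cox4i2 (0.881) and antxr2a (0.88), and the most opposite stk24a (−0.911), ttll12 (−0.898) and mat2al (−0.897). For clockb they were ndrg4 (0.917), otud5a (0.907), fth1b (0.897), slc49a4 (0.893) and pcdh1g18 (0.893), against afp4 (−0.887), rpia (−0.883) and apoa4a (−0.883). ndrg4 was the gene on both clock lists. Among the 5 genes themselves, with clockb read from its brighter probe, r was highest between bmal1a and bmal1b (0.844) and next between clocka and clockb (0.809). With the dimmer clockb probe, r with clocka was 0.648, below that of bmal1b with clocka (0.729) and with bmal2 (0.723).

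On the 48 and 50 hpf arrays, the targeted gene mitfa, a pigment cell transcription factor, was read by 3 probes. On its brightest probe the log2 signals were 11.57 and 11.45 at 50 hpf and 11.95 at 48 hpf on the arrays labelled mitfa morphant. They were 7.93 at 50 hpf and 8.46 at 48 hpf in control morphants, and 7.83 at 50 hpf and 8.47 at 48 hpf in WT. The arrays labelled mitfa morphant were higher, by 3.48 ± 0.21 (limma adjusted p = 0.0013). The morpholino targets the start codon and acts on translation, so that the mRNA level does not check the knock-down.

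bmal1a was nearly the same on all 7 arrays, with 10.60 and 10.64 at 50 hpf and 10.63 at 48 hpf on the arrays labelled mitfa morphant, 10.89 at 50 hpf and 10.61 at 48 hpf in control morphants, and 10.98 at 50 hpf and 10.65 at 48 hpf in WT. The highest pair were the control morphant and WT arrays at 50 hpf. bmal1b varied most, with 6.37 and 8.29 at 50 hpf and 7.72 at 48 hpf on the arrays labelled mitfa morphant, 8.53 at 50 hpf and 7.94 at 48 hpf in control morphants, and 7.60 at 50 hpf and 8.04 at 48 hpf in WT. The lowest value was on an array labelled mitfa morphant, and the groups overlapped.

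The limma test of the 3 arrays labelled mitfa morphant against the 4 others called none of the 5 genes, beside 1.2% of 30507 detected probes. The differences were −0.16 ± 0.13 for bmal1a, −0.56 ± 0.43 for bmal1b, 0.10 ± 0.13 for bmal2, 0.15 ± 0.22 for clocka and −0.27 ± 0.18 for clockb (SE), with adjusted p between 0.40 and 0.73. At an unadjusted p below 0.05 the test took in 6870 probes and none of the 5 genes, the lowest p being 0.16 for clockb. Without the morphant array at 50 hpf with 6.37, the difference of bmal1b was −0.02, and without the one with 8.29 it was −0.98.

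bmal2 ran from 6.38 to 6.66 on the arrays labelled mitfa morphant and from 6.23 to 6.52 on the others. clocka ran from 3.15 to 3.73 against 2.88 to 3.57, with the lowest, the control morphant array at 48 hpf, not well above background. clockb ran from 5.31 to 5.91 on its brighter probe against 5.71 to 6.14. In each of these 3 genes the ranges overlapped.

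Between the ages, 50 minus 48 hpf was 0.18 ± 0.12 for bmal1a, −0.11 ± 0.46 for bmal1b, −0.04 ± 0.13 for bmal2, 0.41 ± 0.18 for clocka and 0.12 ± 0.18 for clockb (SE). None passed (limma adjusted p between 0.52 and 0.97), beside 0.239% of detected probes. An unadjusted p below 0.05 was found for 3015 of 30507 detected probes but for none of the 5 genes, the lowest being 0.054 for clocka. The arrays of each age were on 1 slide, so age and slide cannot be told apart. The 48 and 50 hpf values were normalized apart from the time course and are not set against it.

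**Figure D5:**
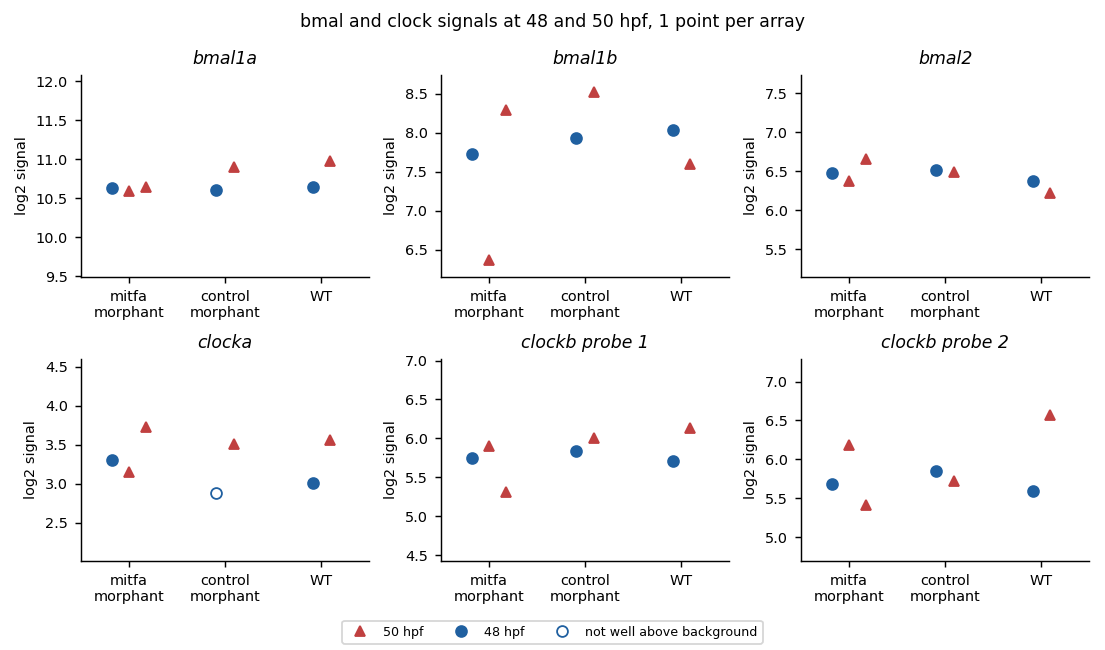
Log2 signal (vertical axis) of each probe on the 7 arrays, by group (horizontal axis, arrays labelled mitfa morphant at the left, then control morphant and WT), with red triangles for 50 hpf and blue circles for 48 hpf. The open circle of clocka was not well above background, and the spread is widest for bmal1b, from 6.37 to 8.53.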

How the data were processed

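Agilent one-colour arrays of 31 pooled larval samples were scanned by the authors, and the deposited intensity files from Feature Extraction (version 10.7.3.1 in the file headers, 10.5.1 in the submitters' processing notes) hold processed signals with local background subtracted. The authors also deposited a matrix of log2 values, quantile normalized, which was used as an alternative. Here, log2 processed signals were quantile normalized within the 24 time-course arrays and within the 7 arrays at 48 and 50 hpf, outlier spots were left out (the g test and templates took the mean of the probe there), and a probe was kept if well above background on at least 75% of its set. No spot was saturated. Of 43603 probes, 16624 were matched to 11482 NCBI genes by accession, and a gene was read from its brightest detected probe.

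Tests were Fisher's g test and moderated tests of limma 3.58.1 in R 4.3.3, Benjamini-Hochberg adjusted over all detected probes, and were tested on simulated data. Each time point has 1 array, so errors measure scatter around the fitted curves, and precision is limited by how many arrays there are. No source says that the dishes came from separate clutches, so the spread may be partly technical. Named genes were the members, the 5 most similar and 3 most opposite genes of each, and fixed lists of clock genes, all matched by symbol or synonym. A listed gene whose probes had no matched accession could not be read and is not in the counts. Members and lists were chosen with earlier results of these data known. Other normalizations, background corrections, filters, cycles, blocks and left-out arrays were tried as alternatives. Probe, promoter and protein sequences were not used here. The methods give 40 larvae per morphant pool and the supplementary methods 50.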

Additional observations from a re-analysis of the deposited data

How the results depend on the processing

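The results were recomputed under the alternatives chosen for each, one choice at a time, with 3 for the phase order and for the second cycle and 1 for age. The g-test rule called 5 genes under 9 of the alternatives, as did the limma test put in its place, 4 where detection on all 24 arrays was required, which left clocka out, and 0 with an adjusted g-test p below 0.05 in both conditions. The limma test of the 24-h terms in both conditions called 5 genes, 4 where detection on all 24 arrays was required, 4 with the dimmer clockb probe, 3 after removal of a linear trend (bmal2 and clockb lost in DD), 0 with only the first or only the second cycle, each of which leaves 6 arrays per condition, and 3 to 5 when single arrays were left out (only DD arrays lowered it, to 3 without the one at 16 h). The mean level of LD against DD called 1 gene (bmal1b), 0 with the slide as a random block (correlation within slides 0.502), 1 to 2 when single arrays were left out, and 2 with the time point as a replicate block, where bmal2 reached an adjusted p of 0.042. Arrays of the same time point shared their deviations in part (r from −0.05 to 0.58, over 0.1 in 9 of 12 pairs), but they are different dishes, and the block changed no other call. The interaction called 0 genes under every alternative.

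The gap between the bmal1 copies and the other 3 genes in LD, 2.38 h, ran from 2.17 to 2.67 h, as a description, since the grouping follows the fitted peaks. The second-cycle rise called 1 gene (clocka), 0 with 75th percentile scaling and 0 in DD alone. The sign of the clocka difference between LD and DD, −0.02, turned to 0.19 with 75th percentile scaling, 0.0031 with normexp, 0.14 without the first cycle, and ranged from −0.085 to 0.075 when single arrays were left out. In the morphant comparison clocka turned to −0.0055 with normexp and ranged from −0.016 to 0.27 when single arrays were left out, and 50 minus 48 hpf for bmal1b turned to 0.074 in WT and control morphants only. None of these was past the threshold. No alternative called any of the 5 genes in the morphant comparison, the methods' t-test included, which took in 272 probes and 5 after Benjamini-Hochberg. The causes were not tested. Promoter motifs were not run, for want of sequences. Dim probes such as clocka are limited by the signal over background.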
